A study of Mus musculus with 12 samples.

Results

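Vomeronasal receptor genes were examined as chromatin of genes that the gut epithelium is not known to use. The members were all peaks of H3K27ac, H3K27me3 or H3K4me3 called with SEACR that overlapped a protein-coding gene with a symbol starting with Vmn1r or Vmn2r, or the 1 kb on either side of it. There were 133 such peaks of 226396: 24 of 62547 for H3K27ac, 85 of 105301 for H3K27me3 and 24 of 58548 for H3K4me3. The rule took in 355 of 21900 protein-coding genes of the RefSeq table. Of these, 3 had coordinates of an unplaced scaffold and could not be matched to a peak, which left 352 genes, 229 Vmn1r and 123 Vmn2r.

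The data are CUT&RUN libraries of intestinal organoids, 3-dimensional cultures of gut epithelium grown from mouse crypts in Matrigel. CUT&RUN uses an antibody to bring a nuclease to a chromatin mark, so that the DNA around the mark is cut free and sequenced. Organoids were kept for 6 days with vehicle or with 25 µM AA (arachidonic acid, a fatty acid from which prostaglandins are made), and each of 3 marks had 2 vehicle and 2 AA libraries, 12 in all. Both groups grew in the same medium, with EGF, Noggin, R-spondin, CHIR-99021 and Y-27632. The series' design text names a knockout of Ptger, whereas the sample labels give no genotype, age or strain, so the genotype of both groups is not settled here. Whether a group's 2 libraries are from separate cultures is not in the labels, so p-values measure only how these libraries spread, and that spread may be technical.

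Mice detect pheromones with neurons of the vomeronasal organ in the nose. Neurons of its apical layer carry receptors of the V1R family (Vmn1r genes, with short spans) and signal through the G protein subunit encoded by Gnai2. Those of the basal layer carry V2R receptors (Vmn2r genes), which have a long extracellular domain and signal through the product of Gnao1. The genes lie in arrays of close copies, and a neuron uses very few of them. H3K4me3 is a mark of active promoters, H3K27ac of active promoters and enhancers, and H3K27me3 of genes held silent by Polycomb complexes. A silent gene can also lie in chromatin with none of these marks, or with marks that were not measured in these libraries, such as H3K9me3.

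The promoter sequences of most of these genes were poor in CG, as were those of the olfactory receptors. RefSeq promoter windows of 300 bases, 250 before and 50 after the start (GRCm38.p6, the mm10 build), were at hand for 323 members. A member's window held a median of 1 CG dinucleotide, against 8 over the windows of 27025 genes, and its median GC content was 36.7% against 53.3%. No CG at all was found in 77 of the 323 (23.8%, against 5.40% of all genes). At least 10 CG were found in the window of 1 member, Vmn2r29 (0.310%), against 45.8% of all genes. In the windows of 944 olfactory receptor genes the median was also 1 CG, with 35% GC, and 33.5% held no CG. CG was searched as the letters C and G in a row, which read the same on both strands.

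The 250 bases before the start of Vmn2r91 (chr17:18084807-18085056, plus strand) and Vmn2r92 (chr17:18151680-18151929, plus strand) are shown because these neighbours held the strongest H3K27me3 peaks of all members. Capitals mark the 5 positions at which the pair differs, and 245 of 250 bases were the same. Neither sequence holds a CG.
Vmn2r91: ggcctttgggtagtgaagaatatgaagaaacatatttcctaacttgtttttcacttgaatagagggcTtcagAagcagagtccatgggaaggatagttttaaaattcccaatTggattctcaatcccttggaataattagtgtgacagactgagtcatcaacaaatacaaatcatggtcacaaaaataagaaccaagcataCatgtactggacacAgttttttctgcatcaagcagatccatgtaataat
Vmn2r92: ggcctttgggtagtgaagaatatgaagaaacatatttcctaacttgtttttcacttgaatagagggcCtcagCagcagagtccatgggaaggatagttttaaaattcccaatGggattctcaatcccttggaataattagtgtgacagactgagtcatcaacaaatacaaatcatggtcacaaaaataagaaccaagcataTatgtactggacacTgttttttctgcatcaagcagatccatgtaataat

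The next 3 are shown with each CG in capitals. Vmn2r29 (chr7:7278290-7278539, minus strand) had H3K4me3 and H3K27ac at its start, and 17 CG stand in the stretch shown. Vmn1r21 (chr6:57844458-57844707, minus strand) also had both marks at its start, of which H3K4me3 was weak, and has 1 CG there. Vmn1r4 (chr6:56956263-56956512, plus strand) had H3K27me3 at this window, which lies inside the gene's RefSeq span, and has 1 CG there.
Vmn2r29: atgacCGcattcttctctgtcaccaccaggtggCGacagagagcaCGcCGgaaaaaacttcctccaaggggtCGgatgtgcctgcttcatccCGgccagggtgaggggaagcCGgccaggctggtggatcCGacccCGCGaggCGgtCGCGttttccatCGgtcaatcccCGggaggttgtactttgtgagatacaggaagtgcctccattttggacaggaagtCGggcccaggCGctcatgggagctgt
Vmn1r21: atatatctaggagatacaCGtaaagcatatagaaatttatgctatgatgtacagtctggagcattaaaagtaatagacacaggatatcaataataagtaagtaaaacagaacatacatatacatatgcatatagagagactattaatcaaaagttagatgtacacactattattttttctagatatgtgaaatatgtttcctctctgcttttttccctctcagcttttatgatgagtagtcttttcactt
Vmn1r4: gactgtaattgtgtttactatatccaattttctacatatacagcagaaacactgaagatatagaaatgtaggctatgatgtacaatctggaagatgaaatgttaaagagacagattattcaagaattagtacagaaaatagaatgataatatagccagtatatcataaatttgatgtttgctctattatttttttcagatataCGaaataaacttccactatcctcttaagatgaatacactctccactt

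The organoid libraries carried active marks at epithelial genes. Of 11 epithelial markers with a promoter window, such as Epcam, Cdx2 and Krt8, 10 had H3K4me3, 8 had H3K27ac and 4 had H3K27me3 at the start. Chga had neither active mark there, and Muc2 and Lyz1 had no H3K27ac. Among 5 markers of vomeronasal or olfactory neurons, 3 had H3K4me3, 0 had H3K27ac and 4 had H3K27me3 at the start, with a highest vehicle score of 0.294 for H3K4me3 against 1.35 among the epithelial markers. Fibroblast markers had H3K4me3 at 1 of 3 starts and H3K27ac at 0, blood cell markers had each at 1 of 5, and endothelial markers had H3K4me3 at 2 of 2 and H3K27ac at 0. H3K27me3 was found at 1 start in each of these lists, so it was not limited to the neuron markers. Raw coverage at the median peak lay between 1.19 and 2.76 fragments per base for H3K27ac and H3K27me3, so a value at a weak peak rests on few fragments. For H3K4me3 it was 3.38 and 2.35 with vehicle and only 1.37 and 1.46 with AA. AA replicate 2 of H3K4me3 stood apart from the other 3 libraries of its mark. The leading principal component, with 48.8% of the variance, put it at 157.7 and the others between -74.1 and -13.5.

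Most vomeronasal receptor genes had no peak of any of the marks. That was so for 281 of the 352 genes (79.8%), 193 of 229 Vmn1r and 88 of 123 Vmn2r genes. Another 58 had peaks of 1 mark, 7 of 2 marks and 6 of all 3 marks. H3K27me3 alone was found at 38 genes, H3K27ac alone at 11 and H3K4me3 alone at 9. A peak of H3K27ac was present at 20 genes (5.68%, against 64.6% of all protein-coding genes), one of H3K4me3 at 20 (5.68%, against 74.4%) and one of H3K27me3 at 50 (14.2%, against 50.8%). Gene length enters these shares, since the median span was 924 bases for Vmn1r and 24544 for Vmn2r genes.

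Measured per base, the receptor genes were poor in all of the marks, Polycomb's included. Of the 4.27 Mb of their spans and flanks, 0.887% lay in H3K27ac peaks, 0.620% in H3K4me3 peaks and 2.90% in H3K27me3 peaks. The same shares over all protein-coding genes were 11.6%, 8.37% and 8.17%. Per Mb there were 5.62 H3K27ac, 5.62 H3K4me3 and 19.9 H3K27me3 peaks, against 42.4, 34.1 and 42.1 over all genes. Vmn1r genes had 3.59% of bases in H3K27me3 peaks and Vmn2r genes 2.73%. For H3K27ac these shares were 1.45% and 0.754%, and for H3K4me3 1.09% and 0.508%.

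Olfactory receptor genes, the receptor family of the main nasal epithelium, had similar shares of bases for the active marks and a higher one for H3K27me3. Their 1109 genes had 0.913% of bases in H3K27ac peaks, 0.630% in H3K4me3 peaks and 4.36% in H3K27me3 peaks. H3K27me3 peaks numbered 40.9 per Mb, about as over all genes, against 35.7 for Vmn1r genes, 16.2 for Vmn2r genes and 19.9 for both together. By genes the order was the other way, with an H3K27me3 peak at 12.6% of olfactory and 14.2% of vomeronasal receptor genes. Gene length enters both measures. The Hox clusters, which Polycomb covers in most tissues, had 99.2% in H3K27me3 peaks and 27.6% in H3K4me3 peaks. Ribosomal and housekeeping genes, active in every cell, had 60.5% in H3K27ac and 64.0% in H3K4me3 peaks and 6.11% in H3K27me3 peaks. These are descriptions of 1 peak set per mark with no test.

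**Figure D1:**
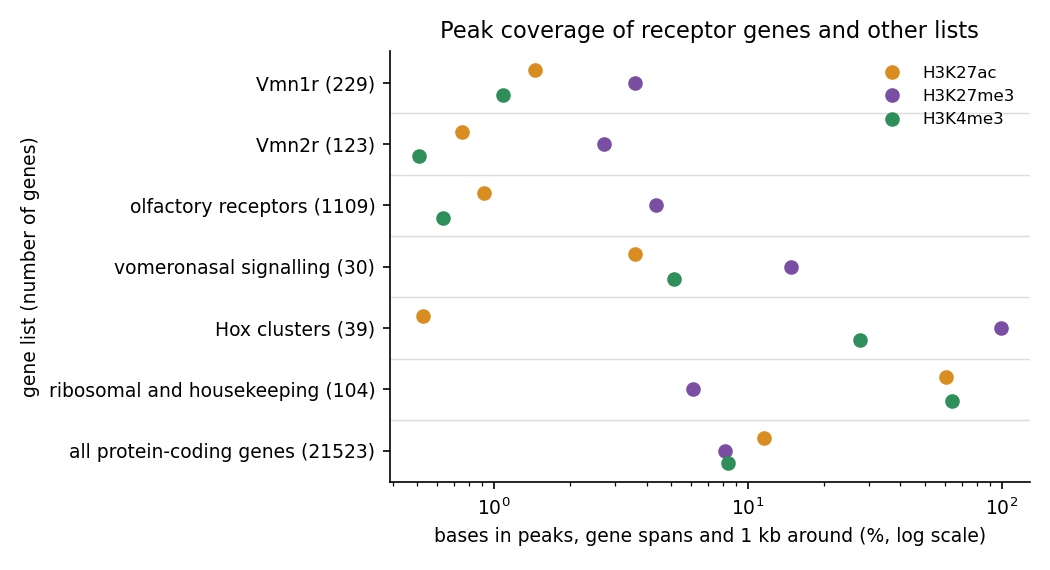
Share of bases in SEACR peaks (x axis, %, log scale) over the gene spans and 1 kb around them, for 7 gene lists (y axis, number of genes matched to the peaks' chromosomes) and 3 marks (colours). Vmn1r and Vmn2r genes have H3K27me3 at 3.59% and 2.73%, against 4.36% for the olfactory receptors and 99.2% for the Hox clusters, and H3K4me3 at 1.09% and 0.508% against 64.0% for ribosomal and housekeeping genes.

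At gene starts the lack of marks was clearer still. The promoter window touched an H3K4me3 peak in 4 of 323 genes (1.24%), an H3K27ac peak in 7 (2.17%) and an H3K27me3 peak in 20 (6.19%). Over the 17274 protein-coding genes with a window these shares were 64.1%, 49.8% and 23.3%. The 4 with H3K4me3 were Vmn2r29, Vmn1r21, Vmn1r191 and Vmn1r158. H3K27me3 at the start was found in 10 Vmn1r and 10 Vmn2r genes, among them Vmn2r91, Vmn2r92, Vmn2r124, Vmn2r83, Vmn2r129 and Vmn1r4. Of the 85 H3K27me3 member peaks, 20 lay at a start, 55 elsewhere in a span and 10 only in a flank.

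Reads from near-identical copies cannot be placed with certainty, and how the authors' alignment treated them is not given in the sources used here. As a measure from the sequences, 117 of the 323 windows (36.2%, against 11.6% of the 27025 genes with a window) shared at least 50 percent of their 30-base words with another gene's window. Of those 117 genes 26 (22.2%) had a peak of some mark, and of the other 206 genes 42 (20.4%) had one. Windows of genes with no peak and of genes with a peak had such sharing in 35.7% and 38.2%. The part of unplaced reads in the low coverage was not tested, and these counts cannot serve as a test of it. Peaks were counted over whole spans and flanks, while the windows speak only for gene starts. The cut also places close copies among the other 206 genes, such as Vmn2r91 (48.7% shared) and Vmn2r92 (49.4%).

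The arrays differed in how many of their genes carried H3K27me3. Genes less than 1 Mb apart formed 27 clusters, 9 of them with at least 10 genes. In the array from Vmn1r188 to Vmn1r223 on chromosome 13, 11 of 36 genes had an H3K27me3 peak. In the array from Vmn1r91 to Vmn1r183 on chromosome 7, the one with most genes, 4 of 86 did. These arrays also differed in the 30-base words that a window shared with others. The share was at most 59.4% in the chromosome 13 array and 100% at many genes of the chromosome 7 array, such as Vmn1r101. The part of unplaced reads in the difference was not tested. All of the 4 genes from Vmn2r80 to Vmn2r83 on chromosome 10 had one, as did 4 of 8 from Vmn2r111 to Vmn2r117 on chromosome 17. There was none at the 9 genes from Vmn2r19 to Vmn2r27 on chromosome 6, whose whole stretch of 0.925 Mb held 1 H3K27me3 peak. The array from Vmn2r90 to Vmn1r237 on chromosome 17 had 20 member peaks of H3K27me3 at only 5 of its 36 genes.

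**Figure D2:**
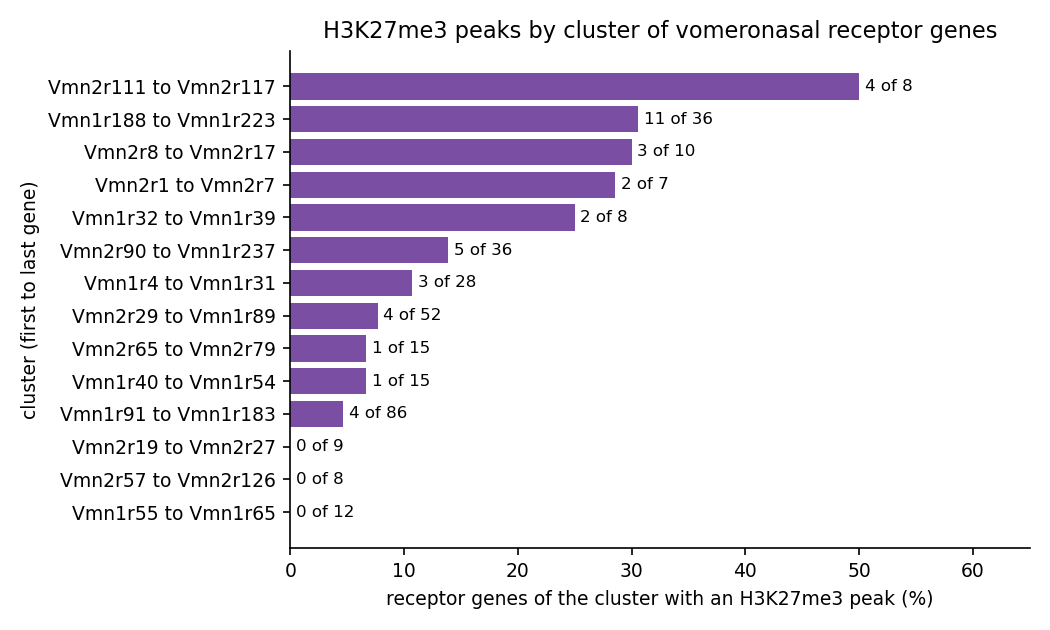
Share of receptor genes with an H3K27me3 peak (x axis, %, bars from 0) in each cluster of at least 7 genes (y axis, first to last gene), with the number of genes printed at each bar. The share runs from 0 of 12 and 0 of 9 genes to 11 of 36 and 4 of 8.

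Where peaks existed, they were mostly weak. The score is coverage per base, averaged over the peak and multiplied by a factor of the library, in arbitrary units. The median vehicle score of the members was 0.148 for H3K27ac (all peaks, 0.176), 0.0907 for H3K27me3 (all peaks, 0.110) and 0.0887 for H3K4me3 (all peaks, 0.169). Members above the median of all peaks numbered 7 of 24, 22 of 85 and 4 of 24. Length was close to that of other peaks for H3K27me3, with a median of 1365 bases against 1344, and shorter for H3K4me3, at 1068 against 1392.

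**Figure D3:**
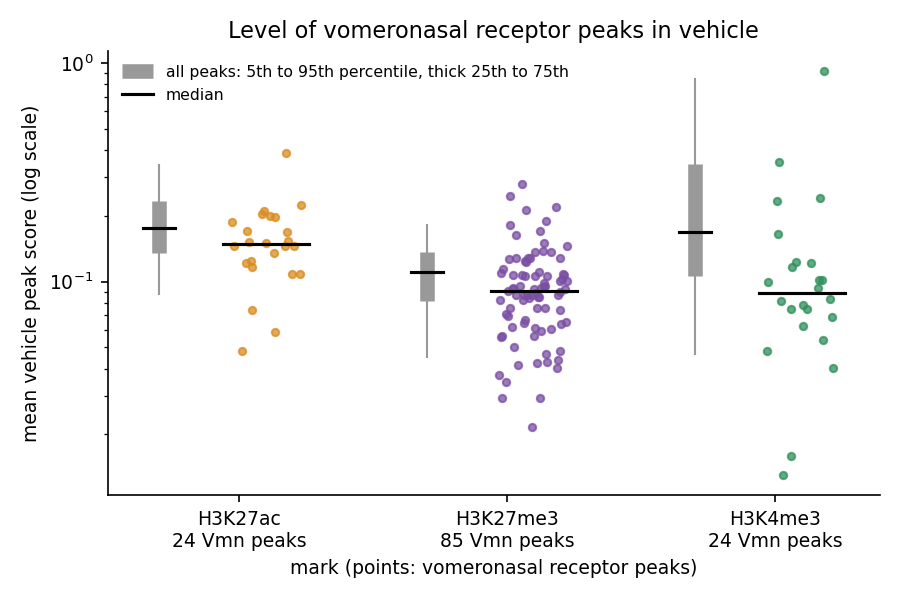
Mean score of the 2 vehicle libraries (y axis, log scale) for each member peak (points) of the 3 marks (x axis), with the median as a black line and the spread of all peaks of the mark in grey. The member medians of 0.148, 0.0907 and 0.0887 lie below those of all peaks, 0.176, 0.110 and 0.169, and single H3K4me3 and H3K27ac members at Vmn1r4 stand far above the rest.

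The active marks lay together less often at these genes than elsewhere, by counts with no test. Of the 24 H3K4me3 members, 7 (29.2%) overlapped an H3K27ac peak by at least 1 base, against 58.2% of all H3K4me3 peaks. Of the 24 H3K27ac members, 6 (25%) overlapped H3K4me3, against 52.5%. Between active and silent marks the counts went both ways. H3K27me3 was overlapped by 5 of the 24 H3K27ac members (20.8%, against 11.9% of all H3K27ac peaks) and by 4 of the 24 H3K4me3 members (16.7%, against 22.4%). H3K27me3 members overlapped H3K4me3 in 4 cases of 85 (4.71%, against 12.3% of all H3K27me3 peaks) and H3K27ac in 4 (4.71%, against 7.68%).

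Library pairs ranked the members less alike than they ranked all peaks for H3K4me3. Spearman's correlation across the 24 members was 0.45 between the vehicle libraries and 0.24 between the AA libraries, against 0.81 and 0.72 across all peaks. For H3K27ac it was -0.08 and 0.46 against 0.51 and 0.65, and for H3K27me3 0.22 and 0.04 against 0.19 and 0.29. These are correlations across peaks that share their libraries, given as descriptions.

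The strongest H3K27me3 signal of the receptor genes lay over Vmn2r91 and Vmn2r92, neighbouring V2R genes whose starts are printed above. Vmn2r91 spans chr17:18085057-18136643 and had 8 peaks, and Vmn2r92 spans chr17:18151930-18185178 and had 5. Together these 13 peaks covered 34.8 kb of a stretch of 84.5 kb. All 5 member peaks above the 95th percentile of vehicle scores of the mark were there, as were all 8 above the 90th percentile. The highest vehicle mean among the other 72 members was 0.146. No H3K27ac peak and no H3K4me3 peak overlapped either gene or its flanks.

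The peak that covers the start of Vmn2r91 (chr17:18081254-18085935) had H3K27me3 scores of 0.222 and 0.205 with vehicle and of 0.193 and 0.170 with AA. The next one (chr17:18086140-18088610), with the highest vehicle mean of all members, had 0.309 and 0.247 with vehicle and 0.245 and 0.208 with AA. The longest (chr17:18092428-18102172, 9745 bases) had 0.227 and 0.211 against 0.159 and 0.162. In each of these the AA libraries lay below the vehicle libraries. None of them passed the test (limma adjusted p = 0.798, 0.592 and 0.599).

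Over Vmn2r92 the peak at the start (chr17:18149964-18152765) had 0.163 and 0.139 with vehicle and 0.151 and 0.123 with AA. Inside the gene, the peak from chr17:18153317-18155162 had 0.120 and 0.258 against 0.193 and 0.114, and the longest (chr17:18159398-18165752) 0.158 and 0.168 against 0.182 and 0.115. The groups overlapped in all of these. The gene on the other side of Vmn2r91, Vmn2r124, had 4 H3K27me3 peaks with vehicle means from 0.0482 to 0.115, none above the 90th percentile. Its promoter window had 194 of 300 bases in common with that of Vmn2r91 when laid side by side without gaps, whereas Vmn2r92 had 294. The Vmn2r91 window shared 48.7% of its 30-base words with other windows and the Vmn2r92 window 49.4%, and the part of misplaced reads between this pair was not tested.

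**Figure D4:**
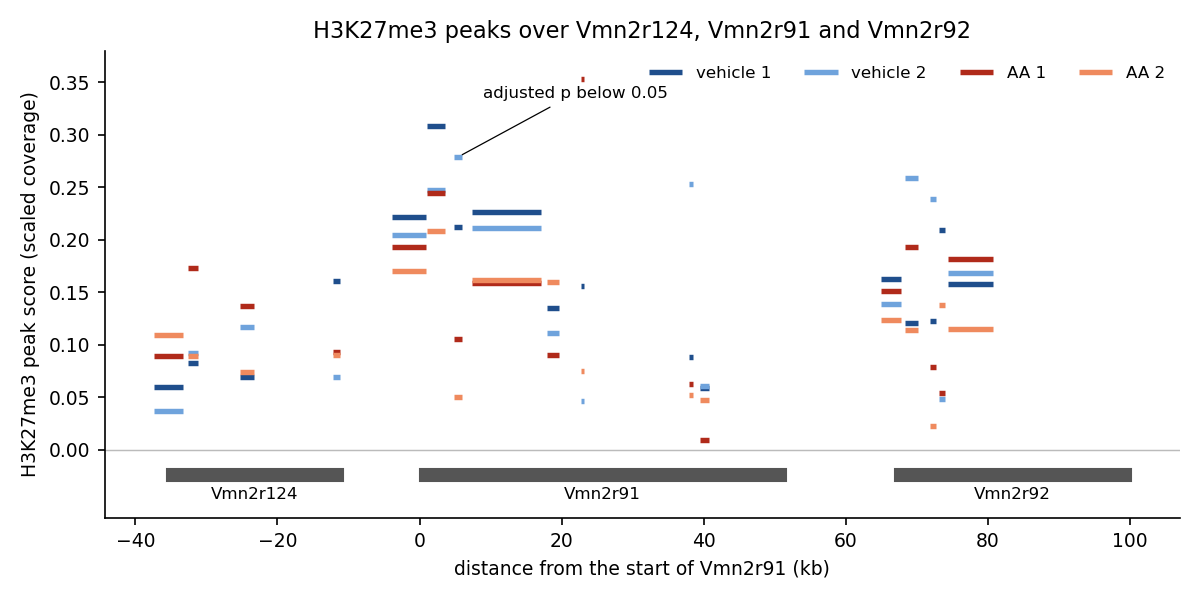
H3K27me3 peak scores (y axis, scaled coverage) along Vmn2r124, Vmn2r91 and Vmn2r92 (x axis, distance in kb from the start of Vmn2r91), with each peak drawn at its length once per library (blue vehicle, red AA) and gene spans as grey bars. Scores over the first part of Vmn2r91 reach 0.309 with vehicle and stand above those of Vmn2r124, and at the peak marked as past the threshold both AA libraries (0.106 and 0.0504) lie below both vehicle libraries (0.212 and 0.279).

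Next, AA was compared with vehicle by limma on log2(score + pseudocount) over all peaks of a mark, with Benjamini-Hochberg adjustment and a threshold of 0.05. Changes are AA minus vehicle on that scale, which understates changes of weak peaks. Of the 133 member peaks, 1 passed, the H3K27me3 peak in Vmn2r91 at chr17:18089956-18091107. It scored 0.212 and 0.279 with vehicle and 0.106 and 0.0504 with AA. Raw coverage there was 3.66 and 3.45 fragments per base with vehicle and 1.12 and 0.659 with AA. The groups did not overlap, and the change was -1.36 ± 0.35 (SE, limma adjusted p = 0.0455). Over all H3K27me3 peaks limma called 0.545% in either direction and 0.0475% as lower, so 1 of 85 members in either direction is read against a background of 574 calls among 105301 peaks.

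That call at Vmn2r91 is a marginal one. It ended in each fit without 1 library, with adjusted p from 0.112 to 0.974 and changes from -1.73 to -1.0, and after each library was centred on its median (-1.47, limma adjusted p = 0.169). Within the 13 peaks of Vmn2r91 and Vmn2r92 the value of the change was below 0 at 12, and both AA libraries lay below both vehicle libraries at 7 and above at 0. Among the other 72 H3K27me3 members the change was above 0 at 44, and both AA libraries lay above at 19 and below at 7. Over all H3K27me3 peaks both AA libraries lay above at 26.3% and below at 13.4%. The length-weighted mean score over the 13 peaks was 0.191 and 0.188 with vehicle and 0.161 and 0.137 with AA, so the groups did not overlap there. Over the other 72 it was 0.0935 and 0.0767 against 0.0920 and 0.115, so the groups overlapped. The pair was singled out after these values were seen, and it stands out by its vehicle scores, which are 1 side of this comparison. Such a choice favours AA values below vehicle. Neighbouring peaks of 1 stretch are also not separate instances, and no test was made of the difference.

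Several other H3K27me3 peaks of the pair had groups that did not overlap, among them the 3 strong Vmn2r91 peaks given above. In Vmn2r92 (chr17:18156879-18157687) the score was 0.123 and 0.238 with vehicle and 0.0788 and 0.0224 with AA (change -1.39, limma adjusted p = 0.414). A short Vmn2r91 peak (chr17:18122996-18123575) had 0.0884 and 0.253 against 0.0621 and 0.0519 (-1.05, limma adjusted p = 0.584). Of the 3 other Vmn2r91 peaks, the one from chr17:18124478-18125773 had 0.0586 and 0.0606 against 0.00932 and 0.0477, and in the other 2 the groups overlapped. The one peak of the pair with a change above 0 (chr17:18107736-18108236) had 0.156 and 0.0462 with vehicle and 0.353 and 0.0749 with AA. Among members of at least median score whose groups did not overlap, the 3 largest values of change above 0 were at Vmn2r82, Vmn2r1 and Vmn1r4. At Vmn2r82 (chr10:79365903-79366433) the score was 0.0217 and 0.0216 with vehicle and 0.341 and 0.0297 with AA, so 1 AA library carried the change of 1.49 (limma adjusted p = 0.532). At Vmn2r1 (chr3:64098777-64099561) it was 0.0474 and 0.0405 against 0.232 and 0.0788 (1.16, limma adjusted p = 0.598), and at Vmn1r4 (chr6:56942552-56943454) 0.0656 and 0.0467 against 0.0907 and 0.225 (1.01, limma adjusted p = 0.622).

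For the H3K27me3 members as a whole the median change was 0.06, against 0.12 over all peaks of the mark, in which centring removed a shift of 0.11. Both AA libraries lay above both vehicle libraries at 19 of 85 members (22.4%, against 26.3% of all peaks) and below at 14 (16.5%, against 13.4%). At an unadjusted p under 0.05 there were 4 members, at Vmn2r91, Vmn2r92, Vmn2r82 and Vmn1r191 (9.39% of all peaks). The start of Vmn1r191 (chr13:22179675-22180957) scored 0.0458 and 0.0288 with vehicle and 0.126 and 0.162 with AA (change 1.34 ± 0.67, SE, limma adjusted p = 0.531). H3K4me3 at the same start (chr13:22179202-22180675) was weak, at 0.107 and 0.0599 against 0.00761 and 0.0544 (limma adjusted p = 0.648). By subfamily the median was 0.25 over 29 Vmn1r peaks and -0.01 over 56 Vmn2r peaks, and Vmn2r includes the 13 peaks described above.

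No H3K27ac member passed: limma called 0 of 24, with 0 at an unadjusted p under 0.05, against 0.2% of all H3K27ac peaks called and 7.71% at an unadjusted p under 0.05. With neither trend nor robust estimation limma called 0 peaks of the mark in all, so its 0 members say nothing. The members' median change was -0.14, against 0.11 over all peaks. Both AA libraries lay above both vehicle libraries at 6 of 24 (25%, against 28.5% of all peaks) and below at 2 (8.33%, against 10.7%). The sign of that median was not stable: it was 0.063 over the 19 peaks that touch a gene span itself, 0.010 without vehicle replicate 1 and 0.018 without vehicle replicate 2.

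The highest H3K27ac scores beyond Vmn1r4 were found at Vmn2r129, Vmn2r117 and Vmn2r1. Vmn2r129 is a gene of 8397 bases near the end of chromosome 4 and had 3 H3K27ac peaks. The one in its flank (chr4:156340420-156344302) scored 0.164 and 0.284 with vehicle and 0.205 and 0.223 with AA, and that at chr4:156337331-156338995 scored 0.132 and 0.265 against 0.116 and 0.153. A peak in Vmn2r117 (chr17:23476672-23477975) scored 0.236 and 0.182 against 0.185 and 0.203. The one in Vmn2r1 (chr3:64190927-64193231), a V2R gene whose product is known to be present with other V2Rs in basal neurons, scored 0.292 and 0.116 against 0.137 and 0.176. The groups overlapped in these 4. The third Vmn2r129 peak (chr4:156331368-156333138) scored 0.144 and 0.155 with vehicle and 0.266 and 0.190 with AA, and the groups did not overlap (change 0.43 ± 0.29, SE, limma adjusted p = 0.759).

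H3K4me3 gave no call either. Limma called 0 of 24 members, with 1 (the peak at Vmn1r4) at an unadjusted p under 0.05, against 2.92% of all H3K4me3 peaks called and 16.2% at an unadjusted p under 0.05. With neither trend nor robust estimation limma called 0 of all H3K4me3 peaks too. The median change of the members was -0.50, against -0.19 over all peaks, of which centring removed a shift of -0.21. Both AA libraries lay below both vehicle libraries at 7 of 24 (29.2%, against 30.5%) and above at 3 (12.5%, against 18.3%). The members' median score was 0.109 and 0.0786 with vehicle and 0.0433 and 0.104 with AA, so the groups overlapped and AA replicate 1 was the low one. The median change became -0.10 without AA replicate 1, -0.44 without AA replicate 2, -0.28 after centring and -0.05 after quantile normalization. Median raw coverage at the members was 2.12 and 1.03 fragments per base with vehicle and 0.397 and 1.03 with AA, and its part in the median change was not tested.

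**Figure D5:**
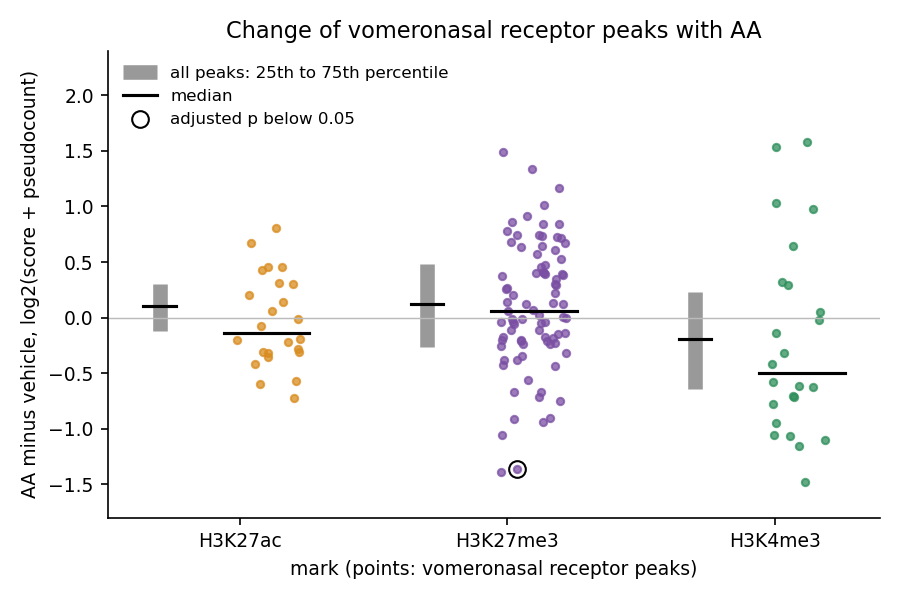
Change of each member peak (points) between AA and vehicle (y axis, difference in log2(score + pseudocount)) for 3 marks (x axis), with medians as black lines and the middle range of all peaks in grey. The H3K27ac, H3K27me3 and H3K4me3 member medians are -0.14, 0.06 and -0.50, against 0.11, 0.12 and -0.19 for all peaks, and the 1 ringed point is the Vmn2r91 peak past the threshold.

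The strongest active marks among the members sat at the 5' edge of the RefSeq span of Vmn1r4, over another gene. This span is 33695 bases, long for a V1R gene, and its first 95 bases lie inside Nt5c3, which encodes a pyrimidine 5'-nucleotidase. The H3K4me3 peak there (chr6:56916610-56925197) scored 0.934 and 0.904 with vehicle and 1.24 and 1.07 with AA, at the 96.8th percentile of vehicle scores. Its change was 0.32 ± 0.14 (SE, limma adjusted p = 0.230), so it was not called. After centring it passed (0.53, limma adjusted p = 0.00591), in a fit that called 6106 of all 58548 H3K4me3 peaks. It also passed without AA replicate 2 (0.42, limma adjusted p = 0.000508), in a fit that called 15.2% of them and in which the lone AA library is assumed to vary like the vehicle libraries. The H3K27ac peak (chr6:56916536-56925284) scored 0.389 and 0.389 against 0.483 and 0.435 (limma adjusted p = 0.779). The Vmn1r4 window printed above is not at that edge but inside the span, 31.1 kb from the end of the H3K4me3 peak, and it overlapped an H3K27me3 peak and no active mark. Counts at starts use the window, so the active marks at the 5' edge of the span are not among them.

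With the MACS2 peak set, 5 H3K4me3 peaks overlapped receptor genes, and limma called 2 of them, both at this edge of Vmn1r4, against 6.3% of all 36552 MACS2 peaks of the mark. They scored 1.37 and 1.47 with vehicle against 2.54 and 2.37 with AA (change 0.72 ± 0.16, SE, limma adjusted p = 0.00723) and 1.57 and 1.84 against 2.89 and 2.24 (0.54 ± 0.16, SE, limma adjusted p = 0.0386). The other 3 were at Vmn2r29, Vmn2r1 and Vmn2r87. MACS2 gave 0 member peaks for H3K27ac and 0 for H3K27me3.

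Vmn2r29 was the one receptor gene whose start had both a promoter rich in CG and clear H3K4me3. The peak (chr7:7275990-7278990) scored 0.356 and 0.349 with vehicle and 0.407 and 0.328 with AA, at the 75.4th percentile of vehicle scores, and the groups overlapped (change 0.05, limma adjusted p = 0.935). The H3K27ac peak at the same place (chr7:7275874-7278911) scored 0.120 and 0.123 with vehicle and 0.167 and 0.219 with AA, at the 17.5th percentile. Its groups did not overlap, and the change was 0.45 ± 0.34 (SE, limma adjusted p = 0.783). The start lies 4.02 kb from the near end of Clcn4, the gene of a chloride and proton exchanger. RefSeq lists 2 promoter windows for the gene, and its H3K27me3 peak (chr7:7220999-7222804), inside the span, had vehicle scores of 0.0308 and 0.0813.

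The remaining H3K4me3 peaks named by level were in flanks or inside genes. In Vmn2r1 (chr3:64191433-64192946) the score was 0.297 and 0.171 with vehicle and 0.137 and 0.122 with AA. Next to Vmn2r87 (chr10:130469938-130471591) it was 0.199 and 0.285 against 0.169 and 0.126, and next to Vmn1r192 (chr13:22188748-22190792) 0.176 and 0.153 against 0.114 and 0.0706. The AA libraries were the low ones in each of these, with changes of -0.71, -0.62 and -0.71, and none passed (limma adjusted p = 0.371, 0.413 and 0.508). Vmn1r21, with H3K27ac over its start at 0.231 and 0.165 with vehicle and 0.171 and 0.147 with AA, had 2 weak H3K4me3 peaks there, with vehicle means of 0.0992 and 0.122. Its window holds 1 CG, so active marks at a receptor start were not limited to the CG-rich window of Vmn2r29.

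The 6 genes with peaks of all 3 marks were Vmn1r4, Vmn2r129, Vmn2r1, Vmn2r2, Vmn2r115 and Vmn2r29. Their H3K27me3 peaks covered 8545, 6171, 5318, 3750, 2122 and 1806 bases. In Vmn1r4 no active mark overlapped H3K27me3. In Vmn2r129 each of the 3 H3K27ac peaks overlapped an H3K27me3 peak. The RefSeq span of Vmn2r1 contains that of Vmn2r2, so a peak in Vmn2r2 counts for both genes.

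Genes that vomeronasal neurons use beside their receptors were marked in another way than the receptors. Of 30 such genes on a list of signalling partners, channels, adhesion molecules and transcription factors, 24 (80%) had H3K27me3, 16 (53.3%) H3K4me3 and 11 (36.7%) H3K27ac. Over all protein-coding genes these shares were 50.8%, 74.4% and 64.6%. H3K27me3 peaks covered 14.9% of the list's bases, against 2.90% for the receptors and 8.17% over all protein-coding genes. Gene length enters these values. The list covers 2.52 Mb, and of its 155 H3K27me3 peaks 49 lay at Kirrel3 and 31 at Meis2. The strongest H3K27me3 peaks of the list were at the transcription factor genes Meis2 (vehicle mean 0.416), Lhx2 (0.393), Tfap2e (0.375), Fezf1 (0.308) and Ebf1 (0.303), all above the 0.278 of the highest receptor peak. Trpc2, the ion channel gene of vomeronasal signalling, and Omp, a marker of mature sensory neurons, had no peak of any mark. Gnai2, whose product also works in many other cells, had H3K4me3 at 1.05 and H3K27ac at 0.376.

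Of the 68 H3K4me3 peaks on that list limma called 2 higher and 1 lower (background 2.92% in either direction). Most peaks of the list had values below 0 all the same, 52 of 68, with a median change of -0.54 against -0.19 over all peaks. Both AA libraries lay below both vehicle libraries at 38 (55.9%, against 30.5%) and above at 6 (8.82%, against 18.3%). The 68 peaks lay at 16 genes. Median changes were also low over the receptors (-0.50), olfactory receptor genes (-0.45), Hox clusters (-0.38) and trace amine-associated receptor genes (-0.81). They were -0.11 over Ms4a genes, 0.25 over taste receptor genes and 0.31 over ribosomal and housekeeping genes. The part of the lower H3K4me3 coverage with AA was not tested. At Ano1, which encodes a calcium-activated chloride channel, a peak (chr7:144749998-144752508) scored 0.113 and 0.134 with vehicle and 0.516 and 0.413 with AA (change 1.71 ± 0.32, SE, limma adjusted p = 7e-05). Another Ano1 peak was stronger with vehicle (mean 0.244 against 0.124) and was not called. Gnai2 scored 1.09 and 1.00 against 1.52 and 1.47 (0.51 ± 0.13, SE, limma adjusted p = 0.00933). A peak in Gnao1 (chr8:93879896-93881138) fell, from 0.25 and 0.290 to 0.0581 and 0.0921 (-1.57 ± 0.45, SE, limma adjusted p = 0.0271). Its AA scores lay below the median scores of their libraries (0.149 and 0.148), where a value rests on few fragments. The start of Gnao1 lay in another peak, with a vehicle mean of 0.238, which was not called. Among 155 H3K27me3 peaks of the list 1 was called (background 0.545%), in Meis2, at 0.324 and 0.339 with vehicle and 0.402 and 0.446 with AA (0.32 ± 0.08, SE, limma adjusted p = 0.0404). Of 38 H3K27ac peaks limma called 0 (background 0.2%), with 4 at an unadjusted p under 0.05, against 7.71% of all peaks. The calls on this list were read from the main fit only. With neither trend nor robust estimation limma called 0 of all H3K4me3 and 0 of all H3K27me3 peaks. After centring, calls over all H3K27me3 peaks went from 574 to 79.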

How the data were processed

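CUT&RUN was done on mouse intestinal organoids with vehicle or AA, in 2 libraries per group for each of 3 marks. The authors deposited a signal per peak and library, a peak score, for peaks called with SEACR and with MACS2 on mm10, per the submitters' processing notes. Tool versions, the aligner and how scores were scaled: not given in the sources used here. Rows named control were taken as vehicle. Multiplied by peak length, at least 99.99% of the scores below 1000 steps gave whole steps of a size set by the library (tolerance 0.1 step), which fits scaled coverage. Score over step served as raw coverage, which limits the precision of weak peaks.

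Gene spans came from RefSeq (GRCm38.p6, matched by symbol), extended by 1000 bases. Table coordinates below the gap of 3 Mb at chromosome starts are those of scaffolds and were not matched. Tests used limma (version 3.58.1, under R 4.3.3, with trend and robust estimation) on scores as log2(score + pseudocount), fitted on all SEACR peaks of a mark. The pseudocount was the 5th percentile of positive scores (0.0693 for H3K27ac, 0.0329 for H3K27me3, 0.0253 for H3K4me3). The fit was also run on simulated data with noise drawn separately for each peak and library. Those data held no shift of a whole library, so that run cannot show how such shifts affect calls. Coverage, lists and promoters are described with no test. Peaks named are those past 0.05, the 5 highest vehicle means per mark, the 3 largest rises and falls among members of at least median level whose groups do not overlap, genes with all 3 marks and Vmn2r91. Others (Vmn1r21, the starts with H3K4me3, Vmn1r191, further peaks of Vmn2r92 and Vmn2r124, levels on the signalling list) were named after their values were seen. Members and lists were chosen with earlier results of these data known. Alternatives were other scalings, pseudocount, filter, peak set, member rules, threshold, single libraries left out and a replicate block. Same-numbered libraries did not deviate together (correlations from -0.00228 to 0.00853), so numbers were not taken as pairs.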

Additional observations from a re-analysis of the deposited data

How the results depend on the processing

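With the replicate block, limma called 1 H3K27me3 member and 0 members of the other marks, as without it, while calls over all peaks went from 125 to 280 for H3K27ac, from 574 to 857 for H3K27me3 and from 1710 to 2522 for H3K4me3. The count of 1 H3K27me3 member became 0 after centring, with neither trend nor robust estimation, with only peaks of at least median score, with the 25th percentile as pseudocount and at a threshold of 0.01, and ran from 0 to 0 without 1 library. It stayed 1 with quantile normalization, with gene spans alone and without peaks over other genes. For H3K4me3 the count of 0 became 2 with MACS2 peaks and 1 after centring, and ran from 0 to 1 without 1 library (a peak in Vmn2r1 and Vmn2r2 without AA replicate 1, Vmn1r4 without AA replicate 2). Over all H3K4me3 peaks the count fell from 1710 to 36 and 32 without vehicle replicate 1 or 2, and was 8478 and 8903 without AA replicate 1 or 2. It was 6106 after centring and 540 at a threshold of 0.01. Over all H3K27me3 peaks 574 became 79 after centring, 164 with quantile normalization, 253 at 0.01 and 44 to 90 without 1 library. For H3K27ac 125 became 54 at 0.01, 0 with only peaks of at least median score and 0 to 120 without 1 library. With neither trend nor robust estimation the count was 0 for each mark. The H3K27ac median change was 0.063 with gene spans alone, against -0.14, and ran from -0.14 to 0.018 without 1 library. The H3K4me3 median change was 0.29 over the 5 MACS2 peaks, against -0.50, with a median vehicle score of 0.598 against 0.0887. The H3K27me3 median vehicle score ran from 0.0704 to 0.0938 without 1 vehicle library. No value could be had from MACS2 for H3K27ac and H3K27me3, which had 0 member peaks. The causes were not tested.

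Without 1 library the sign turned at peaks that did not pass: H3K27ac at Vmn2r117 (-0.22 to 0.063), Vmn2r1 (-0.68 to 0.28) and Vmn2r129 (-0.72 to 0.0078 and -0.32 to 0.28), H3K27me3 at Vmn2r91 from 18103007 (-0.34 to 0.31) and from 18107736 (-0.18 to 1.66) and Vmn2r92 from 18153317 (-0.68 to 0.25), and H3K4me3 at Vmn2r29 (-0.10 to 0.19). Median raw coverage of the members ran from 0.397 to 2.13 fragments per base between libraries. Which size of change this depth could show at weak members was not measured.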

Other observations

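Smaller chemoreceptor families were counted in the same way. The 15 trace amine-associated receptor genes (Taar), which detect volatile amines in the nose, had 0 H3K27me3 peaks, with H3K27ac peaks at 5 genes and H3K4me3 peaks at 4. Their covered bases come to 0.0478 Mb, so few peaks decide these counts. The median vehicle scores were 0.204 for H3K27ac and 0.172 for H3K4me3, close to the 0.176 and 0.169 of all peaks. None of the 9 passed limma, and 0 had an unadjusted p under 0.05 (background of calls, 0.2% and 2.92%).

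The 38 taste receptor genes had H3K27me3 peaks at 7, H3K4me3 at 2 and H3K27ac at 1. The change was above 0 at each of the 10 H3K27me3 peaks, as at 26237 of 44797 H3K27me3 peaks over all protein-coding genes. Limma called 0 of the 10, and 0 had an unadjusted p under 0.05 (all H3K27me3 peaks, 0.545% and 9.39%). Formyl peptide receptor-related genes (Fpr-rs), some of which vomeronasal neurons use, had 1 H3K27me3 peak over 4 genes and no other. The 21 Ms4a genes, which serve as receptors in other olfactory neurons and are also used by blood cells, had H3K27ac at 14 genes and H3K27me3 at 11, with 1 H3K27me3 peak called of 22 (background 0.545%). That peak, beside Ms4a3, was higher with AA, at 0.0875 and 0.0355 with vehicle and 0.287 and 0.228 with AA (change 1.67 ± 0.40, SE, limma adjusted p = 0.0205). Both vehicle scores lay below the median scores of their libraries (0.107 and 0.105), where a value rests on few fragments. The call was read from the main fit only, and with neither trend nor robust estimation limma called 0 H3K27me3 peaks.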
